A study of Mus musculus with 9 samples.

Results

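HuD, the product of Elavl4, belongs to the Hu family of RNA-binding proteins of neurons, recognizes U-rich and AU-rich stretches and affects the stability, transport and translation of the RNAs it binds. Circular RNAs (circRNAs) arise when a downstream splice donor is joined back to an upstream acceptor, a reaction called back-splicing, which yields a covalently closed molecule that resists exonucleases such as RNase R and is common in transcripts of neuronal and synaptic genes. In RNA immunoprecipitation (RIP) an antibody pulls down a protein from a tissue lysate together with the RNA attached to it. The question here is which circRNAs were more abundant in the anti-myc precipitate when the antibody was held the same and the tissue either carried the tagged protein or did not.

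The comparison is between 3 HuD RIP arrays and 3 WT RIP arrays, 6 of the 9 arrays of the series, chosen by their titles. HuD RIP was made from the striatum of adult HuD-overexpressing (HuD-OE) mice, in which a Camk2a promoter, active in forebrain neurons, drives a myc-tagged HuD transgene on a C57BL/6J background. WT RIP was made from the striatum of adult wild-type mice. Both groups were precipitated with the anti-myc tag antibody 9B11, so they share the antibody and differ in the presence of its target. Per the study, tissue of 3 mice was combined for a precipitation and assayed 3 times, and the sources do not settle whether the 3 arrays of a group came from separate pools or from 1 pool. Sex, and age beyond adult, are not given in the sources used here. RNA of the 6 arrays was digested with RNase R, labelled with Cy3 by random priming and hybridized to arrays with 14236 circRNA probes among 14330 probes in all. Of these, 6835 were well above background, by the mark of the scanner software, on 3 or more of the 6 arrays, and these were tested. Names, host genes and classes exist here only for the 737 circRNA probes in the deposited tables, all of which were tested. Those tables hold probes that the authors called higher in HuD RIP against WT RIP or IgG RIP on these same HuD RIP arrays, so the direction of a named circRNA is not independent evidence. Of the 737, 734 carried a gene symbol, from 548 host genes.

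Array levels differed in the unscaled data. For the log2 processed signal, the 75th percentile was 5.46, 3.49 and 4.21 in HuD RIP replicates 1 to 3 and 3.51, 2.35 and 2.82 in WT RIP replicates 1 to 3. The mean was 4.39 ± 1.0 against 2.89 ± 0.58 (SD, n = 3 each), a difference of 1.49 with p = 0.2 by a two-sided exact permutation test, for which 0.1 is the smallest value 3 arrays against 3 can give. These and later p-values measure the spread between precipitations, which may be technical. Probes well above background made up 73.9%, 43.7% and 55.7% of all probes on the HuD RIP arrays and 44.6%, 25.4% and 31.7% on the WT RIP arrays (exact permutation p = 0.2). HuD RIP replicate 2 and WT RIP replicate 1 overlapped on both measures. After scaling, HuD RIP replicate 2 correlated with the WT RIP arrays at r = 0.79 to 0.81 over tested probes and with HuD RIP replicates 1 and 3 at r = 0.63 and 0.87, while replicates 1 and 3 of HuD RIP correlated at r = 0.84. No tissue input was analysed here, so a higher tissue level of a circRNA in HuD-OE mice and a larger share of it recovered with the antibody cannot be told apart.

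**Figure D1:**
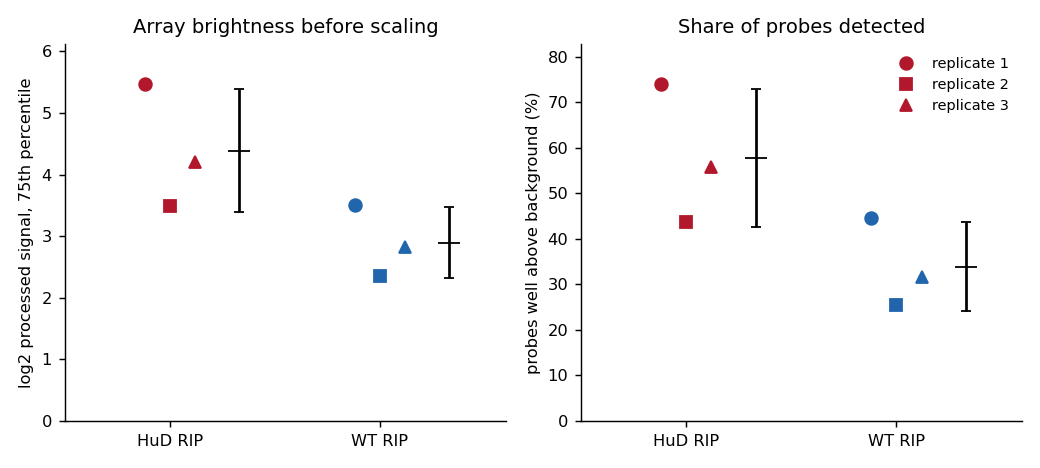
Brightness of each array (left, 75th percentile of log2 processed signal before scaling) and share of probes well above background (right, percent), 1 symbol per array with the mean and SD of 3 beside it. HuD RIP replicate 1 was the brightest array at 5.46, and HuD RIP replicate 2 lay at the level of WT RIP replicate 1.

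All levels below are log2 processed signal minus the 75th percentile of the array, called relative log2 signal, and fold changes are differences of these values, HuD RIP minus WT RIP. This scale takes out the brightness difference. The median over all tested probes was a log2 fold change of −0.36 on it and 1.13 without scaling, so the bulk of probes sat slightly below 0. MM9NEGATIVE015, by its name a negative-sequence probe, was 1 of 2 among 15 such probes that were well above background on 3 or more arrays, while 12 were so on none. Its unscaled log2 signal was 4.34, 4.45 and 4.07 in HuD RIP and 4.63, 4.19 and 4.29 in WT RIP, a difference of −0.08 that became −1.58 after scaling.

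The listed sequences of a few circRNAs with large increases are shown as examples. Each is the 60-base sequence that the deposited tables list for that circRNA. They are written 5′ to 3′ in lower case, with the AU-rich pentamer ATTTA in capitals.
Arpp21 mmu_circRNA_010556, chr9:112183494-112187766, minus strand: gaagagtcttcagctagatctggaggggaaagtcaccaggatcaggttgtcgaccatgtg
Vstm2a mmu_circRNA_22917, chr11:16259854-16263250, plus strand: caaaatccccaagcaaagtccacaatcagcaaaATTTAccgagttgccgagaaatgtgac
Ywhae mmu_circRNA_23699, chr11:75751880-75759428, plus strand: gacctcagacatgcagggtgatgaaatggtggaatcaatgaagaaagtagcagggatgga
Prkacb mmu_circRNA_36280, chr3:146755631-146757768, minus strand: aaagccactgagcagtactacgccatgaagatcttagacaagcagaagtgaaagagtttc
Ppp1cb mmu_circRNA_38400, chr5:32480689-32486032, plus strand: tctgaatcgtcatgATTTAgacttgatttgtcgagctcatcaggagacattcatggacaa
Gsk3b mmu_circRNA_29699, chr16:38170663-38193994, plus strand: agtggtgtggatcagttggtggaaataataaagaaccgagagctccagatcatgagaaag

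Positions are those of the deposited tables, whose build, and whether starts count from 0 or 1, are not stated. Of 688 circRNAs whose transcript matched the RefSeq gene table, 685 lay inside that gene on GRCm38.p6. The pentamer ATTTA was found in 39 of the 713 listed sequences outside chromosome 18 (5.47%), and in 62 (8.70%) when the opposite strand was searched too. The run TTTTT was found in 27 (3.79%), or 86 (12.1%) over both strands. Among the 386 of these called higher in HuD RIP, 5.44% held ATTTA, against 5.5% of the 327 not called. A window of 60 bases holds a small part of a circRNA that spans far more genome, and these shares describe the windows only.

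With limma on the 6 arrays, 486 of the 6835 tested probes were higher in HuD RIP at an adjusted p under 0.05, which is 7.11%, and 21 were lower, which is 0.307%. The median log2 fold change of the probes called higher was 2.67, and by array their median excess over the WT RIP mean was 3.03, 2.17 and 2.99 in HuD RIP replicates 1, 2 and 3. These probes were called on the same arrays, so this describes the calls. Over all tested probes, HuD RIP replicates 1, 2 and 3 exceeded every WT RIP array for 2275, 1457 and 1828 probes. Across all tested probes, the 3 HuD RIP arrays lay above all 3 WT RIP arrays for 1024 probes (15.0%) and below all of them for 1908 (27.9%). At over 1.5-fold and an unadjusted p under 0.05, limma counted 1108 probes higher and 1464 lower. Without scaling the same rule counted 2019 higher and 1 lower. All 6 arrays were on 1 slide, WT RIP replicates 1 to 3 and HuD RIP replicate 1 in its first row and HuD RIP replicates 2 and 3 in the second. With the row as a block, where the contrast rests on HuD RIP replicate 1 against WT RIP, 735 probes were higher and 1423 lower.

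For many of these probes the WT RIP signal was dim. Of the 486 probes called higher, 209 were well above background on no WT RIP array, 187 on 1, 52 on 2 and 38 on all 3. Of all tested probes, 575 were well above background on no WT RIP array and so passed the filter through HuD RIP alone. When only the 3289 probes well above background on all 6 arrays were tested, 25 were higher and none lower by limma, against 105 and 1545 at over 1.5-fold and an unadjusted p under 0.05. No probe passed the adjusted threshold in either direction with normexp background correction or with spike-in scaling. At over 1.5-fold and an unadjusted p under 0.05, these gave 411 probes higher and 1 lower, and 1281 higher and 3 lower. With array brightness as a covariate 2 probes were higher. The number higher was 156 without HuD RIP replicate 3, 210 without WT RIP replicate 3, 311 without WT RIP replicate 2 and 900 without HuD RIP replicate 2. Of the 486, 156, 208, 300 and 486 were called in these 4 fits.

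**Figure D2:**
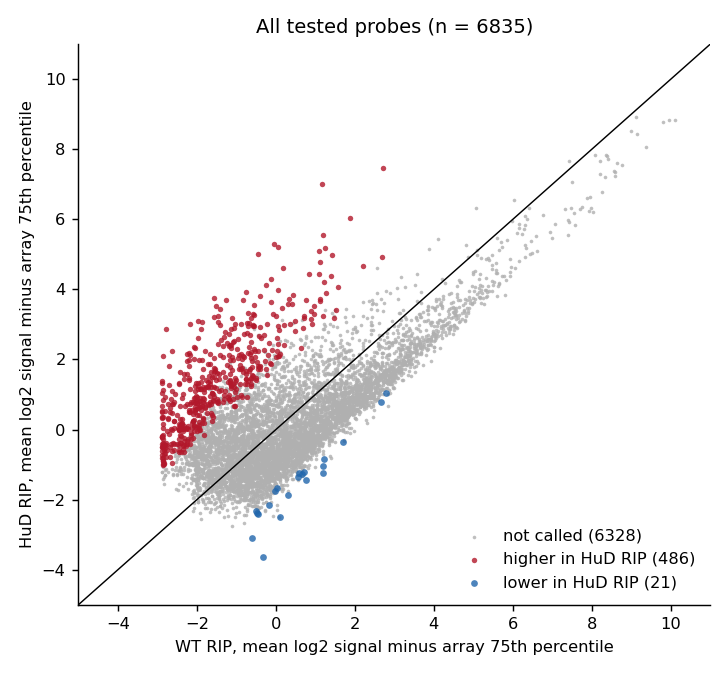
Mean relative log2 signal (log2 processed signal minus the array 75th percentile) of each of the 6835 tested probes in WT RIP (horizontal) and HuD RIP (vertical), with the line of equality. The 486 probes called higher lie above the line and the 21 called lower below it.

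Near the filter edge, the difference between groups followed which arrays detected a probe. Probes well above background on exactly 2 of the 6 arrays, which were not tested, numbered 1636 and had a median difference between groups of 0.38. The 1283 probes on exactly 3 arrays, just inside, had a median log2 fold change of 0.58, and the 1262 probes on 4 arrays had 0.92. Among those on exactly 3, the median was 1.51 for the 575 detected on 3 HuD RIP arrays and no WT RIP array. It was 0.11 for the 663 detected on 2 HuD RIP arrays and 1 WT RIP array, and −1.53 for the 44 on 1 and 2. These medians therefore do not measure the effect of low signal alone.

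The largest increases among named circRNAs with signal in WT RIP were in host genes of G protein, calcium and phosphorylation signalling. Signal here means well above background on at least 1 WT RIP array. Gnb1 encodes the beta subunit shared by many heterotrimeric G proteins. For its exonic circRNA mmu_circRNA_38005 (chr4:155527412-155535464, plus strand) the relative log2 signal was 7.01, 6.53 and 7.44 in HuD RIP and 2.45, 0.77 and 0.29 in WT RIP. The groups did not overlap, and the log2 fold change was 5.82 ± 0.60 (SE; 56.6-fold, adjusted p = 0.000804). It was well above background on all 6 arrays. Arpp21 encodes a cAMP-regulated phosphoprotein abundant in striatal projection neurons, and its circRNA mmu_circRNA_010556 measured 5.26, 4.47 and 5.32 in HuD RIP and 1.62, −2.33 and −0.65 in WT RIP. The WT RIP arrays were widely spread and all below HuD RIP, giving 5.47 ± 0.82 (adjusted p = 0.00326).

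Calm3, a calmodulin gene, had a leading circRNA of the sense overlapping class, which lies in the gene on its own strand and is neither purely exonic nor purely intronic. Calm3 mmu_circRNA_19450 spans only 61 bases by the deposited positions (chr7:16917074-16917135), and it measured 7.06, 7.10 and 8.21 in HuD RIP against 3.50, 2.49 and 2.12 in WT RIP. It was above background on all 6 arrays, with a log2 fold change of 4.75 ± 0.54 (adjusted p = 0.00153). Calmodulin binds calcium and activates several kinases and phosphatases of the synapse.

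Kinase, phosphatase and adaptor hosts were also among the leading circRNAs. Prkacb, a catalytic subunit of protein kinase A, had 3.77, 2.36 and 3.48 in HuD RIP and 0.40, −2.33 and −2.80 in WT RIP for mmu_circRNA_36280, the difference being 4.78 ± 0.78 (adjusted p = 0.00456). The same difference, 4.78 ± 0.64, was found for Ppp1cb, a catalytic subunit of protein phosphatase 1, whose mmu_circRNA_38400 measured 3.32, 2.0 and 3.30 against −0.59, −2.33 and −2.80. Each was well above background on 1 WT RIP array, and both sat at the floor of WT RIP replicates 2 and 3. Ywhae, a 14-3-3 adaptor that binds phosphorylated proteins, measured 2.93, 3.40 and 4.26 in HuD RIP and −0.39, −1.39 and −2.80 in WT RIP for mmu_circRNA_23699, a log2 fold change of 5.06 ± 0.64 (adjusted p = 0.00171). Ahcyl1, which modulates inositol trisphosphate receptors, reached 4.54 ± 0.83 for mmu_circRNA_35965, with HuD RIP between 2.83 and 4.41 and WT RIP between −2.80 and 1.02.

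The remaining leading hosts with WT RIP signal were a membrane protein and trafficking and actin genes. Tspan7, a tetraspanin of the neuronal surface, had a short sense overlapping circRNA, mmu_circRNA_45337 on chromosome X with a span of 186 bases, at 4.87, 4.80 and 5.96 in HuD RIP and 0.36, 0.95 and −1.11 in WT RIP (log2 fold change 5.15 ± 0.61, adjusted p = 0.00161). Actr2, a core subunit of the Arp2/3 complex that nucleates branched actin, had 4.96 ± 0.64 for mmu_circRNA_19003. Rab6a, a small GTPase of Golgi transport, also had 4.96, with an SE of 0.65, for mmu_circRNA_41995. In each of these 10, every HuD RIP array lay above every WT RIP array, which the rule for naming required. Arpp21, Ywhae, Ahcyl1, Actr2 and Rab6a, like Prkacb and Ppp1cb, were well above background on only 1 WT RIP array. The size of their fold changes thus rests in part on signals near background.

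For 6 further hosts the circRNA with the largest bound was well above background on all 3 HuD RIP arrays and on no WT RIP array, so only a lower bound of the fold is available. The bound sets the HuD RIP mean against, on each WT RIP array, whichever was larger of that probe's signal and the dimmest signal marked well above background there. Map4, a microtubule-associated protein, measured 3.02, 2.36 and 3.26 in HuD RIP and −3.25, −2.33 and −2.80 in WT RIP for mmu_circRNA_45112 (chr9:109978849-110036855). On this scale it was thus higher in HuD RIP by at least 12.9-fold. Vstm2a, a secreted immunoglobulin-domain protein, was at least 14.1-fold higher for mmu_circRNA_22917. Nucks1, a nuclear chromatin-associated phosphoprotein, was at least 15.2-fold higher for mmu_circRNA_20865, which measured 3.37, 2.74 and 3.22 in HuD RIP and −1.81, −2.33 and −1.76 in WT RIP. The bounds were at least 8.27-fold for Rbbp4, a histone-binding subunit of chromatin complexes, at least 10.7-fold for the secreted protein gene Fam3c and at least 8.83-fold for Sec62, of the endoplasmic reticulum translocon. All 6 passed the filter through HuD RIP alone, so no p-value of the fit is given for them.

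**Figure D3:**
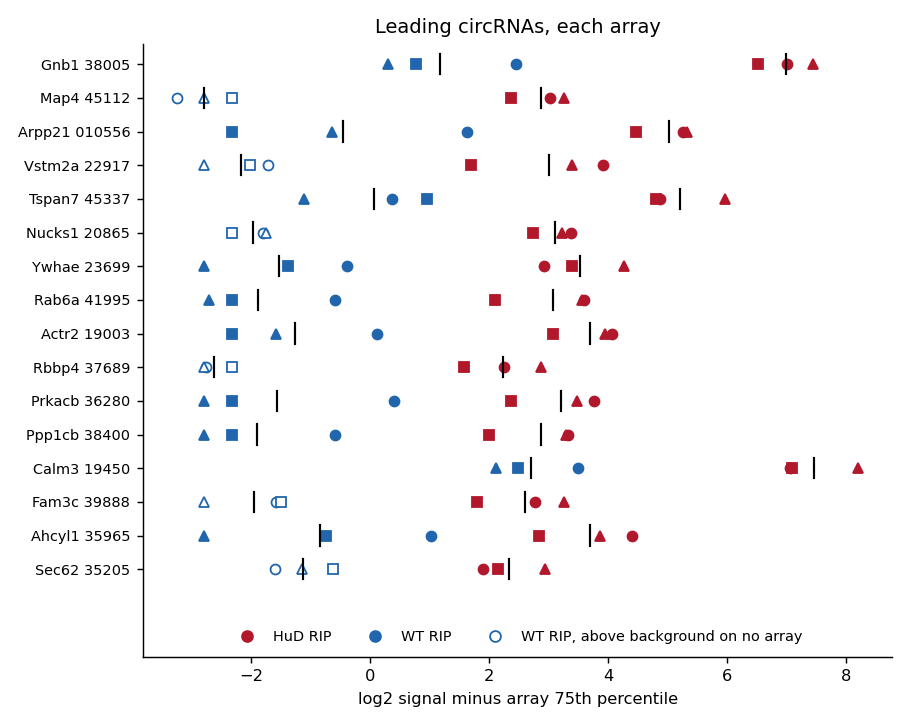
Relative log2 signal (log2 processed signal minus the array 75th percentile) on each array for the 16 leading circRNAs described, by host gene and circRNA number, with group means as vertical bars. Circles, squares and triangles are replicates 1, 2 and 3. In all 16, the 3 HuD RIP values lie to the right of the 3 WT RIP values.

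Host gene lists were then read across all their tested circRNAs. Since all named circRNAs come from tables chosen for being higher in HuD RIP, 396 of the 737 were called higher and 730 had a log2 fold change above 0, with a median of 2.16. The counts per list are therefore given beside these and beside the 7.11% called and the median of −0.36 over all tested probes, without a test. No named circRNA was called lower by limma, and the 7 with a log2 fold change at or below 0 included none past an unadjusted p of 0.05. Of the high values given below, those of Rbfox2, Rnf11, Gpm6a, Gsk3b, Dlg4 and Glrb were each well above background on only 1 WT RIP array.

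Among G protein, cAMP and calcium signalling hosts, 25 of 34 circRNAs from 20 genes were called higher, and the median log2 fold change was 3.00. Values ran from Gnb1 at 5.82 down to Dgkb, a diacylglycerol kinase of striatal neurons. The Dgkb circRNA measured 1.70, 0.64 and 1.39 in HuD RIP and 0.51, 0.44 and 0.91 in WT RIP, and its log2 fold change of 0.62 ± 0.48 was not called.

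RNA-binding and mRNA decay hosts had 35 of 50 called, with a median of 2.31. Rbfox2, a splicing regulator, led with 4.53 ± 0.74 (adjusted p = 0.00456), at 3.43, 2.35 and 3.43 in HuD RIP and 0.41, −2.33 and −2.48 in WT RIP. Celf2, another neuronal splicing and decay factor, was the lowest. It measured 2.21, 1.84 and 2.14 in HuD RIP and 1.59, 1.89 and 1.75 in WT RIP, and its log2 fold change of 0.32 ± 0.44 was within error. All 50 had a log2 fold change above 0.

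Ubiquitin pathway hosts had 19 of 32 called, with a median of 2.64. Rnf11, an adaptor of HECT-type ubiquitin ligases, reached 4.38 ± 0.55 (adjusted p = 0.00171), while Rnf169, a ubiquitin ligase of the DNA damage response, had 0.43 ± 0.57. Cell adhesion and axon guidance hosts had 15 of 25 called, with a median of 2.56. Gpm6a, a neuronal membrane glycoprotein of filopodia, reached 4.39 ± 0.63, with 4.76, 3.03 and 4.60 in HuD RIP and 0.82, −0.67 and −0.93 in WT RIP. Lsamp, an adhesion molecule of the limbic system, had 0.60 ± 0.48.

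For protein kinases, 24 of 45 were called (median 2.03). Gsk3b, a kinase of Wnt and insulin signalling, had 2.70, 1.67 and 2.70 in HuD RIP and −1.08, −2.33 and −2.80 in WT RIP for mmu_circRNA_29699, a log2 fold change of 4.43 ± 0.57 (adjusted p = 0.00171). The lowest kinase circRNA came from Mapk10, which encodes the neuronal JNK3. It measured 3.16, 3.31 and 3.50 against 2.69, 3.63 and 3.03, so that the groups overlapped, with a log2 fold change of 0.21 ± 0.47.

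Cytoskeleton and motor hosts had 22 of 44 called (median 2.05). The highest fitted value was that of Map4, known only by its bound of at least 12.9-fold, and the lowest that of Map1a, a microtubule-associated protein of mature neurons. The Map1a circRNA measured 3.09, 3.49 and 2.86 in HuD RIP and 3.99, 2.76 and 3.15 in WT RIP, and the log2 fold change of −0.15 ± 0.49 was not called. Small GTPases and their regulators had 14 of 34 called (median 2.0), with Rab6a at the top and Kalrn, a guanine nucleotide exchange factor of dendritic spines, at the bottom with 0.55 ± 0.48. Ion channels, pumps and transporters had 11 of 21 called (median 2.05). Atp1b1, the beta subunit of the sodium pump, was above background on all 6 arrays, at 5.78, 3.70 and 5.80 in HuD RIP and 2.06, 0.46 and 0.79 in WT RIP (log2 fold change 3.99 ± 0.66, adjusted p = 0.00502).

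The synaptic lists had shares below the 53.7% called over all named circRNAs. Glutamate receptor and postsynaptic scaffold hosts had 9 of 33 called (27.3%, median 1.90), and presynaptic release and vesicle recycling hosts 7 of 26 (26.9%, median 1.77). Of these, 4 of the 33 and 0 of the 26 were well above background on no WT RIP array, against 154 of the 737 named. Whether this bears on the shares was not tested. Among GABA and glycine signalling hosts 2 of 6 were called, led by Glrb, the beta subunit of the glycine receptor, with 2.66 ± 0.49 (adjusted p = 0.00848). The leading postsynaptic circRNA was of the antisense class, from the strand opposite to Dlg4, which encodes the scaffold PSD-95. It measured 2.66, 3.44 and 3.87 in HuD RIP and −0.23, −1.13 and −0.77 in WT RIP, a log2 fold change of 4.03 ± 0.50 (adjusted p = 0.00171). Dlg1, a related scaffold, was the lowest of that list at 0.40 ± 0.47. On the presynaptic side, a circRNA of Dnm1, the dynamin of vesicle retrieval, had 0.47 ± 0.50. Every circRNA of these lists had a log2 fold change above 0.

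Transcription factor and chromatin hosts formed the largest list, with 32 of 68 called (median 2.02). Rbbp4, for which only the bound given above is available, had the highest fitted value and Ets1 the lowest. The Ets1 circRNA measured 2.24, 3.88 and 1.93 in HuD RIP and 3.55, 3.46 and 3.28 in WT RIP, with a log2 fold change of −0.75 ± 0.56 that was not called and was 0.75 without scaling. The other named circRNAs at the lower end were from Pdia5, a protein disulfide isomerase, at −0.57 ± 0.52 (0.92 without scaling), and from the unnamed locus XLOC_027457 at −0.20 ± 0.50. Npas3, a brain transcription factor, was next at −0.20 ± 0.53.

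**Figure D4:**
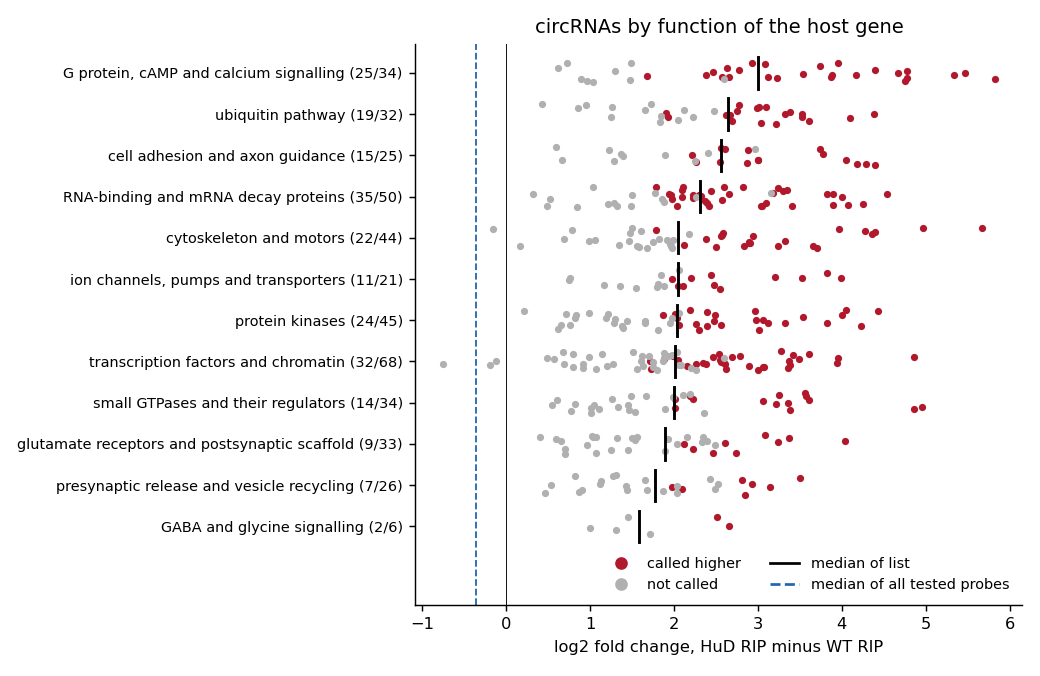
Log2 fold change, HuD RIP minus WT RIP, of every tested circRNA (1 point each) in 12 lists of host genes, with circRNAs called higher over circRNAs tested in brackets. Black bars are list medians and the dashed line is the median of all tested probes at −0.36. All circRNAs plotted come from tables selected for being higher in HuD RIP.

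Of the circRNAs in the tables, 441 were listed against both WT RIP and IgG RIP, 69 only against WT RIP and 227 only against IgG RIP. In the present fit 339 of the 441 were called higher (median 2.61), 34 of the 69 (median 2.02) and 23 of the 227 (median 1.41). Outside the tables, 86 of 6051 circRNA probes were called higher, with a largest log2 fold change of 3.58, and 20 were called lower. These have only a probe number here. By class, 339 of 644 exonic circRNAs were called higher (52.6%, median 2.12), 43 of 68 sense overlapping ones (63.2%, median 2.42), 11 of 20 intronic ones (55.0%, median 2.31) and 3 of 5 antisense ones (median 2.66). Ordered by the length of genome spanned and split into 3 parts, 142 of the 246 shortest were called higher (57.7%), 139 of the 245 in the middle (56.7%) and 115 of the 246 longest (46.7%).

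CircRNAs of the same host gene were also compared. Of 145 hosts with at least 2 tested circRNAs, all were called higher in 56, some in 47 and none in 42, and the median gap between the highest and the lowest log2 fold change of a host was 0.72. The largest gap, 3.84, was in Mapk10, whose circRNA mmu_circRNA_39064 had 4.05 while the one above had 0.21. Mapk10 was singled out after its values were seen. For Foxp1, a transcription factor of striatal projection neurons, 2 circRNAs were called higher, at 2.69 ± 0.63 and 2.59 ± 0.66, and the third had −0.12 ± 0.44 with all 6 arrays between 1.43 and 1.89.

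There were 6 hosts with at least 4 tested circRNAs. Tulp4, of the tubby-like family, had all 5 called higher, from 2.07 ± 0.51 to 3.57 ± 0.83. They are not all distinct forms. On chromosome 17, mmu_circRNA_30196 (6137210-6139151), mmu_circRNA_008009 (6137210-6139156) and mmu_circRNA_19175 (6137208-6139156) lie at nearly the same position. The listed sequences of mmu_circRNA_008009 and mmu_circRNA_19175 share 48 bases. Ube2e2, a ubiquitin-conjugating enzyme, had 3 of 4 called, from 3.33 ± 0.85 to 4.09 ± 0.72, and 2.12 ± 0.61 for the one not called. Mboat2, a lysophospholipid acyltransferase, had 3 of 4 called, with log2 fold changes of 3.57 ± 0.69 and 3.12 ± 0.76 for the pair with WT RIP signal. Camta1, a calmodulin-binding transcription activator, had 2 of 4 called, at 1.73 ± 0.46 and 2.38 ± 0.47. Anks1b, a postsynaptic scaffold-associated protein, had 1 of 4 called. That circRNA, mmu_circRNA_017958, measured 4.68, 4.63 and 5.42 in HuD RIP and 3.52, 1.75 and 2.79 in WT RIP, and its log2 fold change of 2.22 ± 0.55 was smaller than the 2.49 ± 0.82 of another Anks1b circRNA that was not called.

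Homer1, a postsynaptic scaffold that links metabotropic glutamate receptors to calcium stores, had none of its 4 circRNAs called. Their log2 fold changes were 2.33 ± 0.69, 2.16 ± 0.64, 1.90 ± 0.59 and 0.97 ± 0.58, with adjusted p from 0.0647 to 0.228, and 3 of the 4 had an unadjusted p under 0.05. For the first 3 every HuD RIP array lay above every WT RIP array. For mmu_circRNA_010239, the exonic form, the relative log2 signal was 3.84, 3.00 and 3.13 in HuD RIP and 2.66, 0.82 and 0.79 in WT RIP, so that WT RIP replicate 1 came close to the HuD RIP range. These forms may not be independent of one another. The listed sequences of mmu_circRNA_26702 and mmu_circRNA_010239 share 48 bases, and mmu_circRNA_19101 and mmu_circRNA_010239 lie at nearly the same position. A stretch of 27 bases common to all 3 sequences is printed in capitals.
Homer1 mmu_circRNA_19101: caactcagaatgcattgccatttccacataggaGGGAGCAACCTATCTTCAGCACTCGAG
Homer1 mmu_circRNA_26702: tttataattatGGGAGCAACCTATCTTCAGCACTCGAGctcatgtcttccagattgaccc
Homer1 mmu_circRNA_010239: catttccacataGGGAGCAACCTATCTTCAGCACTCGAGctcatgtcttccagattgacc

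The longest shared stretch among the 6 hosts was in Mboat2, whose forms mmu_circRNA_19062 and mmu_circRNA_018655 share a stretch of 50 bases, again in capitals. Both start at chr12:24878190 and their listed ends differ by 2 bases.
Mboat2 mmu_circRNA_19062: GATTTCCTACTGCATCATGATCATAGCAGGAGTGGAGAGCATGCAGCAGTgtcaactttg
Mboat2 mmu_circRNA_018655: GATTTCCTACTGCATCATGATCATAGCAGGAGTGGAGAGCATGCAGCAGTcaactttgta
The first measured 1.58, −0.38 and 1.24 in HuD RIP and −1.37, −2.33 and −0.70 in WT RIP. The second measured 1.54, −0.26 and 1.22 in HuD RIP and −1.88, −0.94 and −0.35 in WT RIP. The first was well above background on no WT RIP array, was called and was at least 2.97-fold higher. The second, above background on 1 WT RIP array, had a log2 fold change of 1.89 ± 0.60 and was not called. Among the leading hosts, the Rab6a circRNAs mmu_circRNA_41995 and mmu_circRNA_41996 start at the same position and share a shorter stretch of 18 bases, in capitals.
Rab6a mmu_circRNA_41995: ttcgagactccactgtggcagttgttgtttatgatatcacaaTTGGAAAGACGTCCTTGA
Rab6a mmu_circRNA_41996: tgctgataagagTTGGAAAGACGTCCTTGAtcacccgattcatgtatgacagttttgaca
Their log2 fold changes were 4.96 and 4.86. Over all hosts, 24 pairs of circRNAs shared at least 30 bases and had a median gap of 0.34, and 211 pairs shared fewer and had a median gap of 0.66. Whether an array probe of one form also captured the other was not tested.

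**Figure D5:**
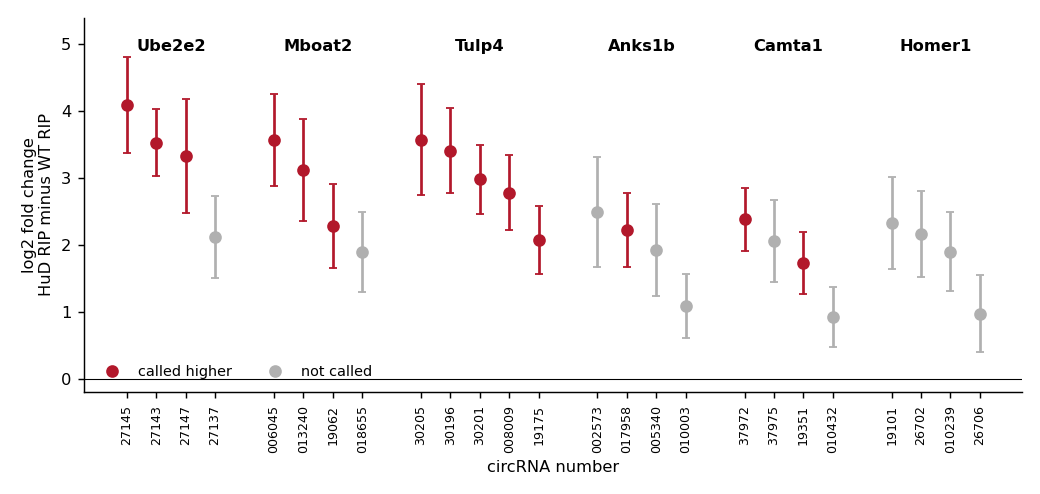
Log2 fold change, HuD RIP minus WT RIP, with its SE, of the 25 circRNAs of the 6 host genes with at least 4 tested circRNAs, labelled by circRNA number. All 5 of Tulp4 were called higher and none of the 4 of Homer1, and in both hosts some forms lie at nearly the same position. The points of Tulp4 mmu_circRNA_30201 and Mboat2 mmu_circRNA_19062 are fitted against WT RIP signals not well above background.

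Further host genes that the study discusses were spread over the same range. Cdk17, a cyclin-dependent kinase of neurons, had both circRNAs called, at 4.0 ± 0.64 (adjusted p = 0.00443) and 3.06 ± 0.66 (adjusted p = 0.0163). Each was well above background on only 1 WT RIP array. Tomm70a, a mitochondrial import receptor, was at least 2.49-fold higher, and Rab30, a Golgi GTPase, at least 1.36-fold higher, neither being well above background on a WT RIP array. Brwd1, Magi1, Lppr4 (now Plppr4) and the longer Dnm1 circRNA were not called, with log2 fold changes of 0.67, 1.28, 0.88 to 0.94 and 0.82.

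Tissue markers can be read here only where a circRNA of the marker gene is in the tables. Of 12 striatal neuron markers 3 had one, Arpp21, Bcl11b and Foxp1, and 6 of their 7 circRNAs were called higher. Astrocyte markers were represented by Slc1a2, at 0.76 ± 0.55, and Slc6a11, at 1.72 ± 0.64, neither of them called, and oligodendrocytes by Qk, with 1 of 2 called. Of all named circRNAs 53.7% were called, and of all tested probes 7.11%. These few circRNAs come from tables chosen for being higher in HuD RIP, so their counts do not compare cell types. No microglial or endothelial marker was represented, so neither cell type could be assessed.

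Probes for linear transcripts gave a small reference set. Of 50, 44 matched a RefSeq transcript and 21 were tested, with a median log2 fold change of −0.98. Of the 21, 4 had a log2 fold change above 0. Actb, encoding beta-actin, had the highest of them. It measured 4.32, 2.99 and 3.96 in HuD RIP and −0.88, −2.32 and −1.51 in WT RIP, a log2 fold change of 5.33 ± 0.55 (adjusted p = 0.000804). Lhfp was also called higher, at 2.15 ± 0.50. Ppara, a nuclear receptor of lipid metabolism, was called lower. Its values of −1.56, −0.06 and −1.53 in HuD RIP lay below 1.2, 1.17 and 1.18 in WT RIP, for a log2 fold change of −2.23 ± 0.52 (adjusted p = 0.025). Pex11a, at −1.52 ± 0.57, was not called, and its HuD RIP arrays all lay below WT RIP.

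The 21 probes called lower were 20 circRNA probes without a name here and Ppara. The largest fitted decrease was at probe ASCRP4000633, which measured −3.19, −3.53 and −4.22 in HuD RIP and −0.57, 0.48 and −0.92 in WT RIP (log2 fold change −3.31 ± 0.53, adjusted p = 0.00449). Probes ASCRP4003361, ASCRP4002980 and ASCRP4007562 followed at −2.62, −2.48 and −2.43. The first 3 of these 4 probes were well above background on 1 HuD RIP array and the last on 2, so the size of the decreases rests on signals near background. The median log2 fold change of the 21 was −1.95 after scaling and −0.45 without it, and limma called none without scaling, where 1 tested probe was lower at over 1.5-fold and an unadjusted p under 0.05.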

How the data were processed

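RNA of 3 HuD RIP and 3 WT RIP precipitations was measured on 1-colour circRNA arrays. The deposited scanner files hold intensity values which, per the file headers, Feature Extraction 11.0.1.1 had background-corrected, and no scaling between arrays had been applied to them. The deposited tables also hold log2 values that the authors had normalized, used here only for comparison. For the 510 circRNAs of the table against WT RIP, their median difference was 1.07, against 2.55 on the scale used here. The sign was the same for all 510. The authors had listed these as higher on the same arrays, so the shared sign is no check of the scaling. Columns with the authors' p-values, false discovery rates and fold changes were not used, nor were 20 further columns of per-sample or group values. The genome build of the positions is not given in the sources used here.

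Control spots and 195 spot values marked as outliers were left out, spots of a probe were averaged, and log2 signals were set relative to the 75th percentile of each array. No spot was saturated. Probes that 3 or more of the 6 arrays showed well above background were tested with limma 3.58.1 in R 4.3.3 (lmFit and eBayes on HuD RIP minus WT RIP, no covariate), with Benjamini-Hochberg adjustment over 6835 probes and a threshold of 0.05. The number of arrays limits the precision. The scripts were tested on simulated data. The members and lists were chosen with earlier results of these data known.

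Named are the 12 largest increases with WT RIP signal and separate arrays, the 6 largest lower bounds among probes without it, the highest and lowest circRNA of each of 12 host gene lists, all circRNAs of hosts with at least 4, the 6 most changed linear probes, the 5 largest decreases, the 3 lowest named circRNAs, and circRNAs of host genes discussed by the study. Some items that this rule selects are not reported here. Astrocyte markers and Mapk10 mmu_circRNA_39064 were named after their values were seen. Alternatives were other scalings, background corrections, filters, covariates, tests and the omission of each array.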

Additional observations from a re-analysis of the deposited data

How the results depend on the processing

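The number of probes called depended strongly on the processing. Counts are given as higher and lower in HuD RIP, against 486 and 21. They were 120 and 0 without scaling, 0 and 0 with spike-in scaling (on 3 of 10 spike-in probes), 0 and 0 with normexp, 25 and 0 for probes that all 6 arrays showed above background, 175 and 7 when each group needed 1 such array or more, 855 and 768 when all 9 arrays were fitted, 735 and 1423 with slide row as a block, and 2 and 0 with array brightness as a covariate. The number lower was 44 with median scaling, 2 with a percentile taken from probes that every array detected, and 50 without a filter. The methods' t-test with Benjamini-Hochberg adjustment gave 0 and 0, and 1 and 0 on quantile-normalized uncorrected signals. At over 1.5-fold and an unadjusted p under 0.05, limma gave 1108 and 1464, the methods' t-test 783 and 933, and on the quantile-normalized signals 496 and 245. That rule gave 2019 and 1 without scaling, 1281 and 3 with spike-in scaling, 411 and 1 with normexp, and 808 and 354 with brightness as a covariate.

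Leaving out 1 array gave 156 to 900 higher and 2 to 1263 lower. The number lower was 8 without HuD RIP replicate 1, 1263 without HuD RIP replicate 2, 2 without HuD RIP replicate 3, and 49, 9 and 2 without WT RIP replicates 1, 2 and 3. With the replicate block 1341 were higher and 1780 lower. Deviations of arrays with the same replicate number correlated at 0.65, 0.56 and −0.10, so the numbers were not taken to pair the arrays, and HuD RIP replicate 3 did not correlate best with its own number.

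The median log2 fold change of tested probes, −0.36, was 0.31 with the percentile over detected probes, −0.05 with cyclic loess, 1.13 without scaling, 0.77 with spike-in scaling, −0.08 with normexp, −0.97 for probes above background on all 6 arrays, −0.55 without a filter, −0.09 with brightness as a covariate and −0.08 on quantile-normalized uncorrected signals. Among named probes, the log2 fold change of Pdia5 turned to 0.50 with cyclic loess, 0.92 without scaling and 0.32 with normexp, and that of Ets1 to 0.75 without scaling. The cause of these changes was not tested. Of the other named values under alternatives, 1528 kept their side of the threshold, 416 lost the call and 54 gained it. These counts leave the sign aside. Without scaling every log2 fold change rose by 1.49, so values slightly below 0, such as those of Map1a and Npas3, turned positive as well. Signals near background in WT RIP limit the size of any single fold.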
